A study of Mus musculus with 18 samples.

Results

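The collagen chain genes are the genes that encode the polypeptide chains of the collagens, and they were described here in single cells of the mouse dorsal dermis over the day. Their members were chosen by symbol alone, as every gene of the count matrices whose symbol consists of Col, a number, the letter a and a number to its end. The rule found 44 genes among the 32285 genes of the matrices, and it used no measured value. Expression was read by single-cell RNA sequencing in droplets (scRNAseq), in which every captured transcript is counted once through its unique molecular identifier (UMI). Values below are levels per 10000 UMIs, from the counts summed over the cells of a group in 1 library. Because the reads come from the 3′ end of the transcript, a UMI stands for 1 captured transcript whatever its length, so levels were not divided by length.

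The 18 libraries came from 18 mice, 3 at each of 6 zeitgeber times (ZT, hours after lights on), which were ZT2, ZT6, ZT10, ZT14, ZT18 and ZT22. All mice were male wild-type C57BL/6J animals, about 54 days old, kept in 12 hours of light and 12 hours of darkness, with neither a mutation nor a treatment in any group. Dorsal dermis was digested with collagenase and live cells were sorted before capture, so cells that do not survive digestion or sorting are missing from every group. The replicate number gives the day of collection, from day 1 to day 3.

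A collagen molecule is a triple helix of 3 chains that are either equal or products of different genes. Fibrillar collagens, of which types I, III and V are the main ones in dermis, form the fibrils that give skin its strength. Type VI forms beaded filaments around cells and between fibrils, the fibril-associated collagens (FACITs) sit on fibril surfaces, type IV forms the network of basement membranes, and the other classes are anchoring fibrils, short-chain networks, transmembrane collagens and multiplexins. Dermal fibroblasts are the main producers of collagen in skin. The circadian clock, a loop of transcription activators and repressors that runs in nearly every cell, sets the daily rhythm of many genes, and the study measured it in dermal cells.

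The libraries held between 4850221 and 40827442 UMIs. Of 23990 barcodes, 16877 passed the filter on genes and mitochondrial UMIs, of which 12621 were fibroblasts, 3283 immune cells and 735 muscle cells. Cells were clustered without the collagen chains and the clock genes. The 6 fibroblast markers (Dcn, Lum, Pdgfra, Dpt, Gsn and Serping1) summed to 335 per 10000 in the fibroblasts and to 9.17 in the immune cells, and the 7 immune markers to 0.116 and 172. All 12 clock genes of a fixed list passed the test of a 24 h rhythm in the fibroblasts, from 1.33-fold between peak and trough for Cry2 to 66.2-fold for Nr1d1, which checks the time labels. Among the kept cells, 36 barcode sequences occurred in more than 1 library, in 73 cells. No library was left out.

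Fibroblasts held 99.4% of all collagen UMIs of the kept cells. Collagen chains took 7.50% ± 1.75 of the UMIs of a library's fibroblasts (SD, n = 18), from 5.54% to 10.3%. In all, 42 of the 44 chains had at least 1 UMI in fibroblasts. Col9a1 and Col19a1, FACIT chains known from cartilage and from muscle and nerve, had 0 of 276629980 UMIs, which allows up to 1.08e-04 per 10000.

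**Figure D1:**
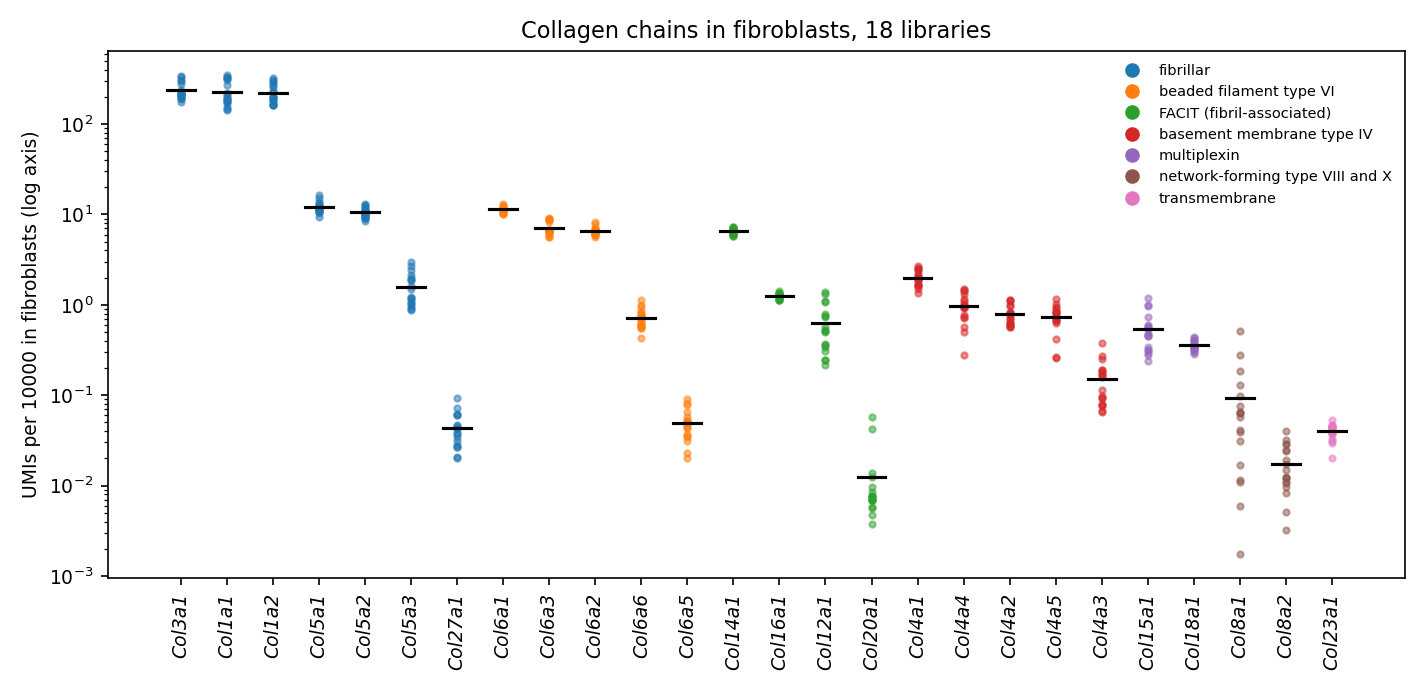
Level in fibroblasts of the collagen chains with a mean at least that of Col20a1, per 10000 UMIs on a log axis. Each point is 1 library and the bar is the mean of the 18 libraries, with chains grouped by collagen class. Chains with a lower mean are not shown. Col3a1, Col1a1 and Col1a2 stand between 142 and 352 in all libraries, and the next chain, Col5a1, between 9.47 and 16.3.

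The fibrillar class held 94.5% of the fibroblast collagen UMIs. Its highest members were Col3a1 (237 ± 51.0 per 10000, SD, n = 18), the only chain of type III collagen, and Col1a1 (226 ± 70.3) and Col1a2 (223 ± 54.3), the chains of type I. These 3 levels did not differ beyond their spread. The type V chains followed with Col5a1 at 12.1 ± 1.67, Col5a2 at 10.5 ± 1.31 and Col5a3 at 1.58 ± 0.653, and Col27a1 was at 0.0438 ± 0.0192. The cartilage chains Col2a1, Col11a1 and Col11a2 and the chain Col24a1 were at 0.00263 per 10000 or less.

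The 6 type VI chains held 3.59% of the collagen UMIs, led by Col6a1 at 11.4 ± 0.764, with Col6a3 at 7.14 ± 1.26 and Col6a2 at 6.54 ± 0.675. Col6a6 was at 0.720 ± 0.179, and the lowest member, Col6a4, at 0.00170. Among the 9 FACIT chains, with 1.16%, Col14a1 led at 6.53 ± 0.484, followed by Col16a1 at 1.25 ± 0.0842 and Col12a1 at 0.631 ± 0.372. The 6 type IV chains held 0.637%. Col4a1 (2.00 ± 0.393) and Col4a2 (0.790 ± 0.201), which build the common basement membrane network together, were joined by Col4a4 (0.959 ± 0.335), Col4a5 (0.733 ± 0.236) and Col4a3 (0.151 ± 0.0848), while Col4a6 was at 0.00400. Of the multiplexins, Col15a1 was at 0.546 ± 0.271 and Col18a1 at 0.357 ± 0.0442. The remaining 10 chains, of the short-chain types VIII and X, the transmembrane types, type VII and 2 others, lay between 0.000293 and 0.0939, with Col8a1, Col23a1 and Col7a1 the highest of their classes.

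Ratios between chains of a collagen molecule varied to different extents across libraries. The ratio of Col1a1 to Col1a2 UMIs was 1.00 ± 0.0928 (SD, n = 18), from 0.868 to 1.25. That of Col6a1 to Col6a2 was 1.75 ± 0.0897, of Col5a1 to Col5a2 1.15 ± 0.0738 and of Col4a1 to Col4a2 2.57 ± 0.246. The ratio of Col6a3 to Col6a1, also partners in type VI, varied more, with 0.626 ± 0.0946 and a range from 0.499 to 0.866. That of Col3a1 to Col1a1, chains of separate molecules, ran from 0.742 to 1.43.

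Some chains also share their promoter region, and the 3 type IV pairs lie head to head in the genome. Col4a1 (ENSMUSG00000031502, chr8:11198423-11312826, minus strand) and Col4a2 (ENSMUSG00000031503, chr8:11312805-11449287, plus strand) overlap in their first 22 bases. Col4a4 (ENSMUSG00000067158, chr1:82448423-82586849, minus strand) and Col4a3 (ENSMUSG00000079465, chr1:82586921-82722059, plus strand) start 72 bases apart, and Col4a5 and Col4a6 start 1309 bases apart on chromosome X (GRCm38 in all cases). The promoter windows of RefSeq (GRCm38.p6, 250 bases before the start site and 50 from it) are shown for the chains with a shared promoter and for Col5a3, the chain with the smallest adjusted p for a 24 h rhythm in fibroblasts, each 5′ to 3′ on the strand of its gene. For Col4a1 (chr8:11312777-11313076) and Col4a2 (chr8:11312555-11312854), the capitals mark the 22 bases that both transcripts share, in opposite directions. For Col4a4 (chr1:82586800-82587099), they mark the 71 bases between its start and that of Col4a3. For Col5a3 (chr9:20815018-20815317, minus strand), they mark the first 50 transcribed bases.
Col4a1: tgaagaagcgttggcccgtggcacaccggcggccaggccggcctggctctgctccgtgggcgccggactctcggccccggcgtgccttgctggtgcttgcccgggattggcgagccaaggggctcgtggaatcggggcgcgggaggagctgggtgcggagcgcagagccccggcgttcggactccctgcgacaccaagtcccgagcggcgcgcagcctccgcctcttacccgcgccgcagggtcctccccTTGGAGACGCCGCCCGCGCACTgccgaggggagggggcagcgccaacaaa
Col4a2: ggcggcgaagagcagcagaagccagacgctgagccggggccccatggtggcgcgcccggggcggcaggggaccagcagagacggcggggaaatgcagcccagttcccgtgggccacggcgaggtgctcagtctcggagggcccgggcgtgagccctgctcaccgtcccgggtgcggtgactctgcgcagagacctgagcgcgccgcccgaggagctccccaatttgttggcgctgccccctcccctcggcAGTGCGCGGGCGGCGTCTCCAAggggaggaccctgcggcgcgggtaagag
Col4a4: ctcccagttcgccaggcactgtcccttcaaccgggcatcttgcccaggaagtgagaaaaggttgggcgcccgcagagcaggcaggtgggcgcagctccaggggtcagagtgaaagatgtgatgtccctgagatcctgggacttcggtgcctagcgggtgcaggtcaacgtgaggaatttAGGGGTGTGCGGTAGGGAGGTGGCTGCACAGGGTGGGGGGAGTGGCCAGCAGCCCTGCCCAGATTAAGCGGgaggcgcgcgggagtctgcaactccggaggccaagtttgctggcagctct
Col5a3: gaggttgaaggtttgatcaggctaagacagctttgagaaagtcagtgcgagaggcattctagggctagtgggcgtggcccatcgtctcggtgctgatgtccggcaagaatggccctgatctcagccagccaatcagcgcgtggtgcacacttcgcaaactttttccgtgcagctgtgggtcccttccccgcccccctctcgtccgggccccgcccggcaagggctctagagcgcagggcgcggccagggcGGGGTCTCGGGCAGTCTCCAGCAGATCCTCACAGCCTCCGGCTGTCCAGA

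Known clock elements were searched in these windows on both strands. Windows were held for 35 of the 44 chains, those of Col12a1, Col14a1, Col1a1, Col22a1, Col26a1, Col2a1, Col4a3, Col5a2 and Col9a3 not being in the table. The E-box CACGTG, bound by the clock activators, was in the windows of 0 of 35 chains and of 8.09% of all 27025 genes. The D-box TTATGNAA was found in the windows of Col13a1, 133 bases before the start, and Col4a6, 179 bases before it, and in 3.99% of all genes. The ROR element, searched as ANTAGGTCA, was in 0 of 35 chains and 0.707% of all genes. None of the 3 patterns contains another. A missing match says only that these letters are not in these 300 bases.

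The fibroblasts formed 9 clusters large enough to be followed, each called by listed markers or by its leading genes, and a cluster of 58 dividing cells. The Cthrc1 Tnmd cluster, whose first marker is known from matrix-producing fibroblasts, stood apart in collagen. It had 5.68% of the fibroblasts and 7.08% of their UMIs, but 19.1% of their collagen UMIs and 26.8% of those of Col1a1. Its Col1a1 level was 753 ± 121 per 10000 (SD, n = 16 libraries with at least 10 cells), against 264 ± 62.8 in the next cluster, Cxcl14 Steap4 Gdf10. It was the highest of the clusters in 16 of 16 libraries. The level of Col1a2 in it was 670 ± 119 and that of Col3a1 350.5 ± 54.9, so the ratio of Col3a1 to Col1a1 was 0.469 ± 0.0493 there and 1.06 ± 0.140 in the Cxcl14 Steap4 Gdf10 cluster. Collagen took 18.5% of its UMIs, and between 5.52% and 8.51% in the other 8. Because the chains themselves add to the total, this share depends on the denominator and was 22.9% relative to the UMIs of all other genes. The level differences between clusters are a description, since the clusters were defined in the same cells.

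Less abundant chains of the Cthrc1 Tnmd cluster were Col15a1, a multiplexin of basement membrane zones, at 3.49 ± 0.642 per 10000, and Col4a3 at 0.880 ± 0.281. With 52.2% and 47.1% of the fibroblast UMIs of these chains, it held more of them than any other cluster. Its Col4a5 level, by contrast, was 0.102 ± 0.0650, the lowest of the clusters, against 1.15 ± 0.381 in the Sult1e1 Cxcl13 Dkk2 cluster. Col4a3, Col4a4 and Col4a5 are known as partners in a single type IV molecule in kidney.

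The Cilp Mgp Mfap4 cluster (4.75% of the fibroblasts) held 93.1% of the UMIs of Col8a1 and 62.4% of those of Col8a2, the chains of the short-chain type VIII network. Col8a1 was at 1.49 ± 1.26 per 10000 in it (n = 15) and at 0.0334 ± 0.0456 in the next cluster, and no UMI was found among 29933312 in the Pi16 Sema3e Cd248 cluster. It also had the highest levels of Col12a1, a FACIT of dense connective tissue, with 2.12 ± 1.17 against 0.953 ± 0.512 in the next, and of Col14a1, with 9.68 ± 1.49 against 8.20 ± 0.627. Those of Col6a1 (14.8 ± 1.44), Col6a2 (10.4 ± 1.66) and Col27a1 (0.186 ± 0.115) were highest there as well, each in at least 12 of the 15 libraries.

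The Cxcl14 Steap4 Gdf10 cluster (3.92% of the fibroblasts) led in the basement membrane chains Col4a1 (6.95 ± 1.82 per 10000, n = 17) and Col4a2 (3.61 ± 0.830), and Col4a2 was highest there in 17 of 17 libraries. The lowest levels were those of the Dmkn Krtdap Sbsn cluster, at 0.864 ± 0.248 and 0.265 ± 0.0825. The ratio of Col4a1 to Col4a2 was 1.92 ± 0.187 in the former and 3.34 ± 0.625 in the latter. Col6a5 was also highest in the Cxcl14 Steap4 Gdf10 cluster (0.383 ± 0.232, against 0.0629 ± 0.0462 in the next), as was Col18a1 (0.743 ± 0.202). Col12a1 was nearly missing from it, at 0.0320 ± 0.0568, and Col14a1 was at 1.37 ± 0.763, its lowest level in any cluster.

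**Figure D2:**
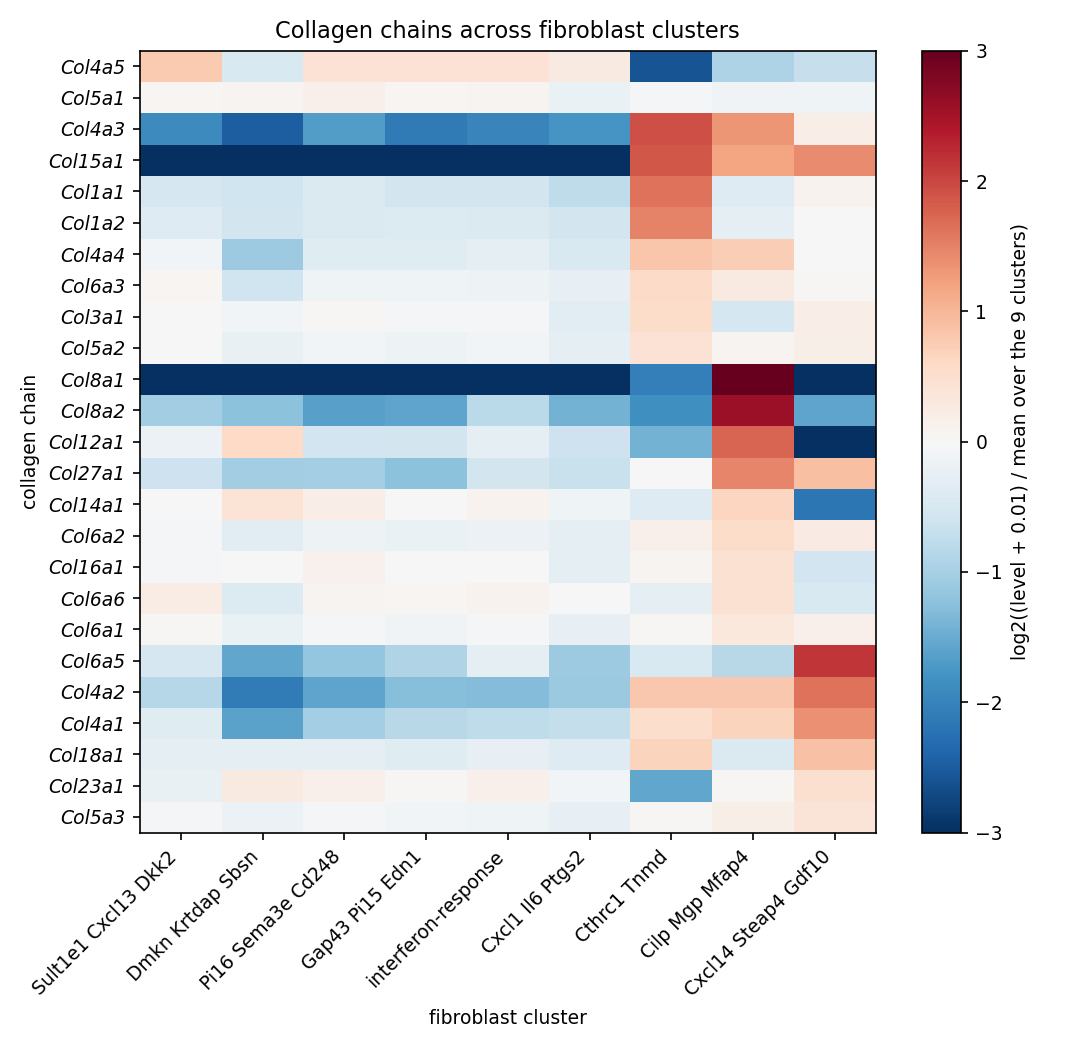
Level in the 9 fibroblast clusters of the collagen chains whose mean in all fibroblasts was at least that of Col8a2. Colour gives the log2 ratio of the mean over libraries to the mean of the 9 clusters, after adding 0.01 per 10000 to each. The colour range ends at 3 in both directions. The type I chains, Col15a1 and Col4a3 are darkest in the Cthrc1 Tnmd column, Col8a1, Col8a2 and Col12a1 in the Cilp Mgp Mfap4 column, and Col4a1, Col4a2 and Col6a5 in the Cxcl14 Steap4 Gdf10 column.

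The other 6 clusters resembled each other more. Col1a1 was lowest in the Cxcl1 Il6 Ptgs2 cluster, at 145 ± 40.7 per 10000, and the chain with the least difference between clusters among the abundant ones was Col5a1, with 13.2 ± 1.76 in the Pi16 Sema3e Cd248 cluster and 10.5 ± 2.21 in the Cxcl1 Il6 Ptgs2 cluster. The Pi16 Sema3e Cd248 cluster was led by AY036118, Gm42418 and Lars2, genes that often carry ribosomal or mitochondrial RNA fragments. They were followed by the clock gene Per3 and by Crispld1, Pla1a and E130102H24Rik, and only then by Sema3e and Pi16. Its median was 16558 UMIs per cell. At a resolution of 2, AY036118, Gm42418 and Lars2 led a fibroblast cluster of 901 cells with a median of 8343 UMIs. The part of these in the values of the cluster was not tested.

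The comparison over zeitgeber time asks which collagen chains follow the time of day in fibroblasts. Of the 44 chains, 26 passed the filter on low counts and 18 did not, among them the 2 at 0. A 24 h rhythm was called for 7 of the 26 at an adjusted p under 0.05 (edgeR's quasi-likelihood test, adjusted over 12427 genes). An unadjusted p under 0.05 was found for 10 of the 26 chains and for 3678 of the 12427 genes. Among all genes tested, 13.7% were called, and the median log2 amplitude was 0.128, against 0.225 for the 26 chains. The median of the chains was not stable. It was 0.143 without the Cilp Mgp Mfap4 cluster (23 chains tested), where that of all genes was 0.126. Without any 1 library it ran from 0.153 (ZT6 replicate 1 left out) to 0.278 (ZT6 replicate 3), and that of all genes from 0.126 to 0.134. Called chains fell into a group of 4 that peaked in the light phase, Col5a3, Col6a6, Col4a4 and Col4a1, and a group of 3 that peaked in the dark or at its onset, Col8a1, Col12a1 and Col27a1. None of the 3 abundant chains of types I and III was called. Peak times and folds are those of the fitted 24 h curve on the log2 scale, with jackknife standard errors (SE) over libraries. Times set against each other below were often picked as a chain's highest and lowest. A gap between their libraries is thus a description only, and Col14a1, which was not called, had one too.

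Col5a3 (ENSMUSG00000004098, chr9:20770050-20815067), a minor chain of type V collagen, had the smallest adjusted p of the chains. Per 10000 UMIs, Col5a3 was at 3.00, 2.12 and 2.41 at ZT2, at 2.69, 1.86 and 1.63 at ZT6 and at 1.98, 1.21 and 1.08 at ZT10 in replicates 1 to 3. Its levels were 1.21, 1.04 and 0.905 at ZT14, 0.880, 0.948 and 0.987 at ZT18 and 1.89, 1.17 and 1.51 at ZT22. Its 3 libraries at ZT2 were all above all 9 libraries of ZT14, ZT18 and ZT22, and the ZT18 values were among the lowest. The fitted curve peaked at ZT3.8 (SE 0.707 h) with a 2.71-fold difference between peak and trough (log2 amplitude 0.72, SE 0.09, adjusted p = 1.8e-04). The adjusted p stayed at 7.0e-04 or below without any 1 library. After thinning to 5000 UMIs per cell, which left out 379 fibroblasts and 613 immune cells, 47.0% of the fibroblasts and 1.20% of the immune cells had a Col5a3 UMI (79.2% and 2.25% before thinning, at median depths of 21907 and 11242 UMIs).

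Col6a6 (ENSMUSG00000043719, chr9:105687809-105828160), a type VI chain, followed a similar course at a smaller size. Per 10000 UMIs, Col6a6 was at 1.01, 0.853 and 0.773 at ZT2, at 1.13, 0.940 and 0.560 at ZT6 and at 0.756, 0.768 and 0.685 at ZT10 in replicates 1 to 3. Its levels were 0.432, 0.585 and 0.581 at ZT14, 0.629, 0.548 and 0.605 at ZT18 and 0.814, 0.606 and 0.686 at ZT22. The 3 libraries of ZT2 were all above those of ZT14, while ZT6 replicate 3 was as low as the ZT14 libraries. The peak was at ZT4.1 (SE 0.766 h) with a 1.73-fold difference (adjusted p = 0.0097).

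Col4a4 had the smallest adjusted p of the type IV chains. Per 10000 UMIs, Col4a4 was at 1.51, 0.945 and 0.931 at ZT2, at 1.31, 1.41 and 1.01 at ZT6 and at 1.44, 0.954 and 1.17 at ZT10 in replicates 1 to 3. Its levels were 0.279, 0.566 and 0.496 at ZT14, 0.726, 0.771 and 0.716 at ZT18 and 0.996, 0.941 and 1.09 at ZT22. All 3 libraries of ZT14 were below the other 15, and the 3 of ZT18 came next. The peak was at ZT4.2 (SE 0.980 h) with a 2.29-fold difference (adjusted p = 0.020). Its head-to-head neighbour Col4a3 was not called (adjusted p = 0.054). Its fitted peak was at ZT5.8 (SE 1.34 h) with a 2.65-fold difference. Of the 6 times, its mean was highest at ZT6 (0.246 ± 0.115 per 10000) and lowest at ZT14 (0.0712 ± 0.00771, SD, n = 3). Col4a3 passed without the Cthrc1 Tnmd cluster (adjusted p = 0.034) and without any 1 of 4 libraries, namely ZT2 replicates 2 and 3, ZT18 replicate 1 and ZT22 replicate 3.

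Col4a1 was called with the least margin. Per 10000 UMIs, Col4a1 was at 2.38, 1.81 and 2.20 at ZT2, at 2.66, 2.47 and 2.04 at ZT6 and at 2.51, 1.87 and 1.96 at ZT10 in replicates 1 to 3. Its levels were 2.57, 1.68 and 1.62 at ZT14, 1.35, 1.52 and 1.66 at ZT18 and 1.97, 1.66 and 2.10 at ZT22. The 3 libraries of ZT6 were above the 3 of ZT18, and ZT14 replicate 1 stood well above the other libraries of its time. The peak was at ZT6.1 (SE 1.15 h) with a 1.50-fold difference (adjusted p = 0.029). This call was lost without any 1 of 6 libraries (ZT6 replicates 1 and 2, ZT14 replicate 2 and the 3 of ZT18, adjusted p from 0.050 to 0.085) and without the Cthrc1 Tnmd cluster (0.065) or the interferon-response and Cxcl1 Il6 Ptgs2 clusters (0.089). Col4a2, its partner on the other strand, had a fitted peak at ZT6.8 (SE 1.69 h) and 1.54-fold, with an adjusted p of 0.092, and of 0.029 with the replicate block.

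Col12a1 (ENSMUSG00000032332, chr9:79598991-79718831) had the opposite phase. Per 10000 UMIs, Col12a1 was at 0.312, 0.371 and 0.506 at ZT2, at 0.217, 0.242 and 0.566 at ZT6 and at 0.530, 0.801 and 0.358 at ZT10 in replicates 1 to 3. Its levels were 1.07, 1.31 and 0.725 at ZT14, 0.750, 1.38 and 1.12 at ZT18 and 0.244, 0.511 and 0.345 at ZT22. The 3 libraries of ZT18 were all above the 3 of ZT6 and the 3 of ZT22. Its peak was at ZT15.4 (SE 0.912 h) with a 3.32-fold difference (log2 amplitude 0.87, SE 0.18, adjusted p = 0.0031). Col27a1 (ENSMUSG00000045672, chr4:63214004-63334991), a fibrillar chain of low level, peaked at ZT15.2 (SE 0.827 h) with a 2.28-fold difference (adjusted p = 0.0099). Per 10000 UMIs, Col27a1 was at 0.0206, 0.0264 and 0.0418 at ZT2, at 0.0309, 0.0456 and 0.0204 at ZT6 and at 0.0472, 0.0376 and 0.0266 at ZT10 in replicates 1 to 3. Its levels were 0.0920, 0.0628 and 0.0597 at ZT14, 0.0722, 0.0598 and 0.0435 at ZT18 and 0.0381, 0.0285 and 0.0342 at ZT22. The libraries of ZT14 were all above those of ZT2, and the chain rested on 1164 fibroblast UMIs in all.

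Col8a1 (ENSMUSG00000068196, chr16:57624258-57754737) differed by 9.66-fold between peak and trough, at ZT12.4 (SE 1.02 h, log2 amplitude 1.64, SE 0.53, adjusted p = 0.0088). Per 10000 UMIs, Col8a1 was at 0.0413, 0.0171 and 0.0632 at ZT2, at 0.0111, 0.0312 and 0.0573 at ZT6 and at 0.186, 0.129 and 0.0980 at ZT10 in replicates 1 to 3. Its levels were 0.517, 0.275 and 0.0642 at ZT14, 0.0756, 0.0115 and 0.0654 at ZT18 and 0.00175, 0.0396 and 0.00589 at ZT22. ZT10 replicates 1 to 3 and ZT14 replicates 1 and 2 were the 5 highest libraries, while ZT14 replicate 3 was among the others. Since 93.1% of its UMIs lay in the Cilp Mgp Mfap4 cluster, the share of that cluster is given beside it. It was 3.51% ± 1.42 of the fibroblasts at ZT2, 7.47% ± 1.88 at ZT10, 8.09% ± 3.90 at ZT14 and 3.27% ± 2.01 at ZT22 (SD, n = 3). In sums over fibroblasts, more cells of a kind and more RNA per cell cannot be told apart. Without this cluster, Col8a1 was too low to be tested and Col27a1 was not called (adjusted p = 0.166), while Col12a1 kept its call. Within the cluster, Col8a1 had a fitted peak at ZT12.0 and a 3.96-fold difference (adjusted p = 0.155 over the genes of that cluster). Col12a1 was also high in the Dmkn Krtdap Sbsn cluster, whose share was 25.7% ± 4.53 at ZT14 and 22.5% ± 1.12 at ZT18, and from 9.77% to 16.4% on average at the other times.

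**Figure D3:**
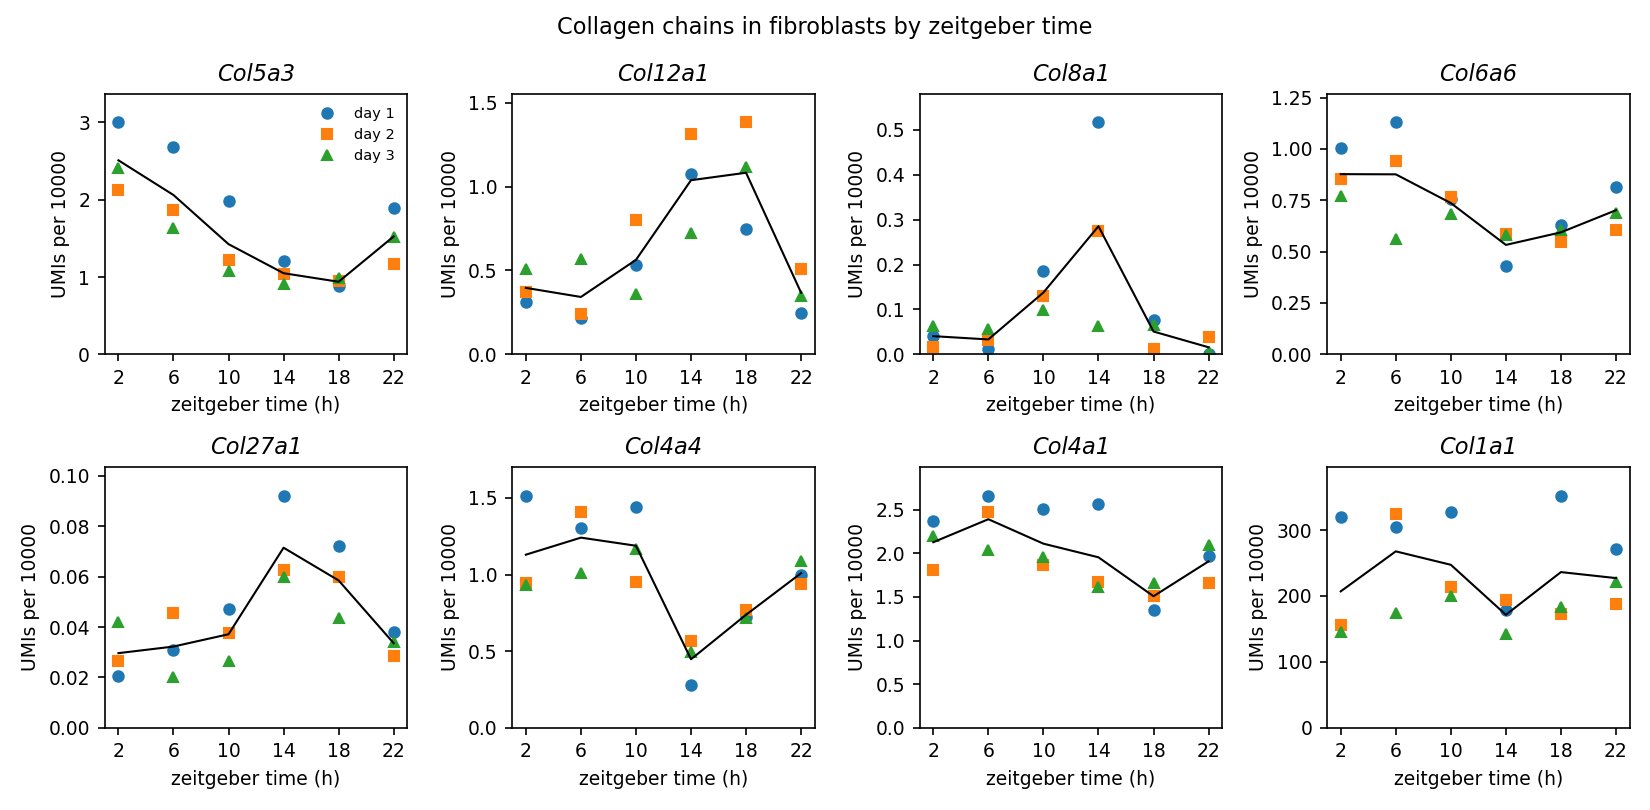
Levels per 10000 UMIs in fibroblasts against zeitgeber time for the 7 chains called rhythmic and for Col1a1, with a marker per library (its shape gives the day of collection) and a line through the means of the 3 libraries. Col5a3, Col6a6, Col4a4 and Col4a1 are high at ZT2 to ZT6, Col12a1 and Col27a1 are highest at ZT14 and ZT18 and Col8a1 at ZT10 and ZT14, and the Col1a1 libraries range from 142 to 352, with those of ZT14 between 142 and 193.

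The abundant chains gave no such order. Per 10000 UMIs, Col3a1 was at 331, 206 and 208 at ZT2, at 341, 240.5 and 177 at ZT6 and at 297, 220.3 and 193 at ZT10 in replicates 1 to 3. Its levels were 210.2, 218 and 189.8 at ZT14, 276, 214 and 214 at ZT18 and 309, 192 and 226 at ZT22. The 3 libraries of ZT6 alone held both the lowest and the highest value, and the fitted 24 h difference was 1.21-fold (adjusted p = 0.60). Per 10000 UMIs, Col1a1 was at 319.8, 156 and 145 at ZT2, at 305, 324 and 174 at ZT6 and at 328, 213 and 201 at ZT10 in replicates 1 to 3. Its levels were 179, 193 and 142 at ZT14, 352, 173 and 184 at ZT18 and 271, 188 and 222 at ZT22. The highest mean, 268 ± 81.7 at ZT6, and the lowest, 171 ± 26.5 at ZT14, overlapped, and the fitted difference was 1.24-fold (adjusted p = 0.71). The Cthrc1 Tnmd cluster held 26.8% of the Col1a1 UMIs, 52.2% of those of Col15a1 and 47.1% of those of Col4a3. Its share was 9.62% ± 6.22 of the fibroblasts at ZT6, 9.37% ± 4.53 at ZT10 and 3.44% ± 0.522 at ZT14 (SD, n = 3). At the other times it was 4.92% to 7.15% on average. The part of this share in the levels of these chains over the day was not tested. Per 10000 UMIs, Col1a2 was at 301, 162 and 164 at ZT2, at 284, 258 and 167 at ZT6 and at 326, 224 and 202 at ZT10 in replicates 1 to 3. Its levels were 187, 198 and 164 at ZT14, 304, 181 and 189 at ZT18 and 269, 202 and 233 at ZT22. Its 3 libraries at ZT10 were just above the 3 at ZT14, and the fitted difference was 1.16-fold (adjusted p = 0.80).

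Col5a1 (ENSMUSG00000026837, chr2:27886425-28039514) and Col6a1 (ENSMUSG00000001119, chr10:76708792-76726168) were not called either. Between the highest and the lowest library, Col5a1 differed by 1.72-fold and Col6a1 by 1.29-fold. Per 10000 UMIs, Col5a1 was at 16.3, 11.1 and 12.3 at ZT2, at 15.1, 12.3 and 10.8 at ZT6 and at 13.3, 12.1 and 10.3 at ZT10 in replicates 1 to 3. Its levels were 10.9, 12.3 and 11.5 at ZT14, 12.4, 10.8 and 11.9 at ZT18 and 13.6, 9.47 and 11.5 at ZT22. The fitted difference was 1.18-fold (adjusted p = 0.42). Per 10000 UMIs, Col6a1 was at 12.999, 10.7 and 11.7 at ZT2, at 12.7, 11.8 and 10.1 at ZT6 and at 11.8, 11.4 and 11.2 at ZT10 in replicates 1 to 3. Its levels were 10.2, 11.5 and 11.5 at ZT14, 11.4, 10.8 and 11.4 at ZT18 and 12.001, 10.5 and 11.4 at ZT22. The fitted difference was 1.09-fold (adjusted p = 0.53), and the libraries of its highest and lowest time overlapped.

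The remaining chains that were tested had adjusted p values from 0.127, for Col15a1, to 0.914, for Col20a1. Col15a1 had a fitted peak at ZT5.4 and a 2.13-fold difference. The smallest fitted difference was that of Col14a1, with 1.03-fold, whose level stood between 5.81 and 7.27 in all 18 libraries. Of the 26 fitted peaks, 21 fell between ZT2.9 and ZT8, a window chosen from these peaks. The share of all genes with a peak in it was not determined, so no gathering of the chains is read from it. For most of them the standard error of the time was several hours, so the time was not well set.

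**Figure D4:**
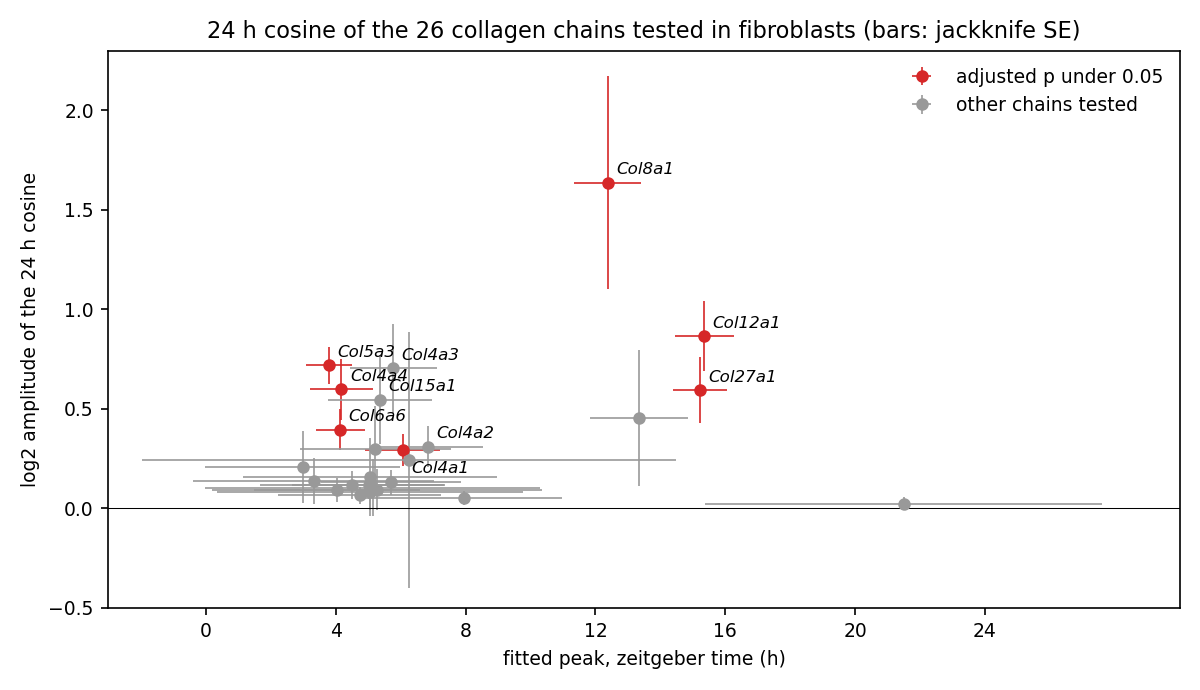
Log2 amplitude of the fitted 24 h curve against its peak time (ZT, hours) for the 26 chains tested in fibroblasts, with jackknife standard errors in both directions and the 7 called chains in colour. The called chains stand at ZT3.8 to ZT6.1 and at ZT12.4 to ZT15.4, and chains of low amplitude have wide errors in time.

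A test of any difference among the 6 zeitgeber times, without a curve, called 4 of 27 chains, and 8.34% of all 12868 genes. These were Col4a4 (adjusted p = 0.0041), Col5a3 (0.0047), Col12a1 (0.010) and Col8a1 (0.019), all 4 also called by the 24 h curve. The fold between the highest and lowest fitted time was 2.89 for Col4a4 and 15.98 for Col8a1. Without ZT14 replicate 1, the library with the highest Col8a1, that chain was no longer called (adjusted p = 0.051), nor was it without the Cilp Mgp Mfap4 cluster (0.087). Col27a1 was just outside (0.054) and passed with the replicate block (0.049). A rank test, JTK_Cycle, was run on the libraries as 18 consecutive time points, with periods shorter and longer than 24 h searched as well. By it, Col5a3 was the only one of 42 chains with a p under 0.05, not adjusted over genes, against 5.0% of all genes. The p values of this test were those of ranks without ties, although the curves searched hold tied values, which makes the p values too large. Col27a1, Col4a1 and Col13a1 came next at 0.054 each, and Col6a6 at 0.071.

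Other measures moved over the day in the same fibroblasts. The 6 adipocyte markers (Adipoq, Plin1, Cidec, Lpl, Cfd and Retn, all detected) summed to 5.27 ± 0.987 per 10000 at ZT2 and 1.98 ± 0.526 at ZT14 (SD, n = 3). Pooled over libraries, their sum was 3.75 in the fibroblasts and 5.62 in the immune cells, so it was not particular to adipocytes. The sum of AY036118, Gm42418 and Lars2 was 336 ± 152 at ZT2 and 190.2 ± 16.05 at ZT18, and the 13 mitochondrial genes summed to 210.2 ± 5.39 at ZT22 and 247 ± 17.2 at ZT14. Endothelial and mural markers, which go with basement membrane chains, were each detected in full (6 of 6) but summed to at most 0.0698 and 0.431 in any library. The part of these in the chains' values was not tested.

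The 9 clusters were taken from the same mice, so calls of a chain in several clusters are not independent replications. With each cluster fitted separately, Col5a3 had its fitted peak between ZT2.7 and ZT5.4 in all 9, with differences from 2.23-fold to 3.48-fold. It was called in 8 of them. The exception was the Cilp Mgp Mfap4 cluster, with 2.23-fold and an adjusted p of 0.098. In the Sult1e1 Cxcl13 Dkk2 cluster, the largest, Col5a3 differed by 2.78-fold with a peak at ZT3.2 (SE 0.678 h, adjusted p = 3.9e-06). Col12a1 was called in 4 of the 8 clusters in which it was tested, with peaks from ZT14.7 to ZT16.4, and Col4a4 and Col6a6 in 3 of 9 each, with peaks between ZT3.4 and ZT4.5. Col4a1 was called in none of the 9, where its fitted differences were from 1.16-fold to 1.43-fold, with a smallest adjusted p of 0.12.

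By cluster, 5 of 21 chains were called in Sult1e1 Cxcl13 Dkk2 (7.80% of all genes tested there), namely Col5a3, Col4a4, Col12a1, Col6a6 and Col15a1. In Pi16 Sema3e Cd248, 4 of 19 were called (4.59%), in Gap43 Pi15 Edn1 3 of 18 (5.11%) and in the interferon-response cluster 3 of 19 (3.91%). A single chain was called in Dmkn Krtdap Sbsn (of 19, 4.84%), Cxcl1 Il6 Ptgs2 (of 20, 1.02%), Cthrc1 Tnmd (of 20, 1.42%) and Cxcl14 Steap4 Gdf10 (of 20, 0.747%), which was Col5a3 in each. In Cilp Mgp Mfap4, Col27a1 was the chain called (of 23, 2.41%), with a 4.15-fold difference and a peak at ZT14.6 (SE 0.744 h, adjusted p = 0.0082). With the replicate block, Col6a6 in Pi16 Sema3e Cd248 (adjusted p = 0.101) and Col15a1 in Sult1e1 Cxcl13 Dkk2 (0.057) were lost, and Col12a1 was gained in Dmkn Krtdap Sbsn (0.036).

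Some of these calls rested on single libraries. Col5a3 kept its call without any 1 library in 6 of its 8 clusters. In Cthrc1 Tnmd it was lost without any 1 of 6 libraries (ZT2 replicates 1 and 3, and replicates 2 and 3 of ZT14 and of ZT18), with adjusted p from 0.054 to 0.1001. In Cxcl1 Il6 Ptgs2 it was lost without any 1 of 6 libraries as well (all 3 of ZT2, ZT6 replicate 1, ZT18 replicates 2 and 3), with adjusted p from 0.065 to 0.077. Col12a1 was lost in Pi16 Sema3e Cd248 without ZT18 replicate 3 (0.097), and in Gap43 Pi15 Edn1 without any 1 of ZT2 replicates 1 and 2, ZT6 replicate 1, ZT14 replicate 3 and ZT18 replicates 2 and 3 (from 0.052 to 0.080). Col4a4 was lost in Pi16 Sema3e Cd248 without ZT14 replicate 2 (0.051) and in Gap43 Pi15 Edn1 without ZT14 replicate 3 (0.074). The call of Col6a6 held least, and in Pi16 Sema3e Cd248 it was lost without any 1 of 13 libraries, namely all those of ZT2 and ZT22, ZT6 replicate 1, ZT10 replicates 2 and 3, ZT14 replicates 2 and 3, and ZT18 replicates 1 and 3 (from 0.056 to 0.154). In Sult1e1 Cxcl13 Dkk2 it was lost without ZT6 replicate 1, ZT14 replicate 2 or 3, or ZT18 replicate 2 (from 0.053 to 0.109). Col15a1 was lost there without ZT2 replicate 2, ZT6 replicate 1 or 2, ZT14 replicate 3, or ZT18 replicate 2 or 3 (from 0.052 to 0.138).

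Whether the rhythm of a chain differed between the clusters was tested as an interaction over 13 libraries and the 9 clusters. It was called for 0 of 24 chains, and for 0.440% of all genes, by edgeR's quasi-likelihood test. An unadjusted p under 0.05 was found for Col5a3 alone among the chains (adjusted p = 0.64), and for 769 of 9989 genes. No other tool was run on the interaction. Without the filter on low counts, 6 of 42 chains passed, and 3.02% of all genes, and they were Col1a1, Col12a1, Col5a3, Col4a3, Col1a2 and Col15a1. Among them, Col1a1 had 5778184 fibroblast UMIs, far above the filter. In the interaction fits, the negative binomial dispersion of counts was not estimated gene by gene. The quasi-likelihood dispersion behind the F-test was estimated for each gene. Why the calls depended on the filter was not tested. A cluster in which a chain was called and one in which it was not are thus not shown to differ with the filter in place.

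In immune cells, collagen took 0.162% ± 0.129 of the UMIs (SD, n = 18), from 0.0242% to 0.504%. The mean was 0.101% with doublets removed and 0.0840% after clustering at a resolution of 2. The 12 chains at 1 per 10000 or more in fibroblasts stood at between 2.18% and 4.19% of their fibroblast level in immune cells, with a median of 2.38%, close to the 2.74% at which the summed fibroblast markers stood. Whether shares at this level are background or expression was not tested. In these cells edgeR called a 24 h rhythm for 0 of 12 chains and for 0.0795% of all genes, and DESeq2 for 0 chains. An unadjusted p under 0.05 was found for 1 of the 12 chains, Col5a3 (adjusted p = 0.60), and for 821 of 10059 genes.

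**Figure D5:**
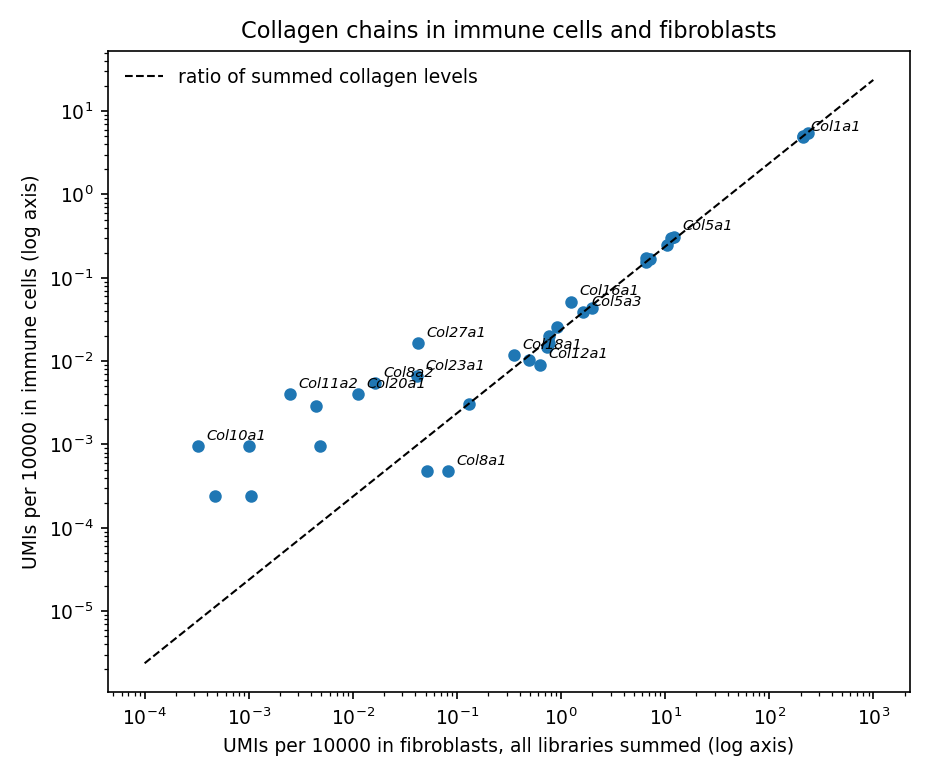
Level of each chain in immune cells against its level in fibroblasts, per 10000 UMIs on log axes, from the counts pooled over the 18 libraries. The dashed line is the ratio of the summed collagen levels of both cell types, the abundant chains follow it, and Col27a1 lies above it.

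Col27a1 did not follow this proportion. Its level in immune cells was 39.1% of that in fibroblasts, from 69 UMIs, of which 35 came from 22 dendritic cells (0.997 per 10000, 95% Poisson interval 0.694 to 1.39, for counting error only), 22 from the monocytes (0.0152) and 7 from the macrophages (0.00314). The UMIs of the dendritic cells and those of the monocytes came from 11 libraries each. Of the 35 in dendritic cells, 13 came from ZT6 replicate 2, while no library gave more than 4 of the 22 in monocytes. In the 22 dendritic cells, led by Ccl22, Fscn1 and Fabp5, Col27a1 was the highest chain, above Col3a1 with 0.655. The monocyte cluster had H2-Ab1 and H2-Eb1 among its leading genes. At a resolution of 2, a second cluster, of 269 cells, was named dendritic cells. The split of Col27a1 between dendritic cells and monocytes is thus that of a resolution of 0.8. Col8a2, a chain of the short-chain network, was another exception. All 23 of its UMIs in immune cells lay in the Ccl5 Gzma Nkg7 cluster, in 9 libraries, at 0.09998 per 10000 (interval 0.0634 to 0.150), against 0.0164 in fibroblasts. All other chains with a share over 10% of the fibroblast level were at 0.0414 per 10000 or less in fibroblasts, where Col27a1 was at 0.0421. Among them, Col23a1 stood at 0.161, Col20a1 at 0.364 and Col11a2 at 1.62 of the fibroblast level, from 28, 17 and 17 immune UMIs. Departures from the proportion were thus not particular to Col27a1 and Col8a2.

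Small groups of other cells had chains of their own. In 27 endothelial cells, Col4a1 (21.7 per 10000, interval 19.8 to 23.7), Col4a2 (10.5) and Col15a1 (4.22), the chains of vessel basement membranes, were the highest, above the fibrillar chains. In 17 keratinocytes it was Col17a1 (4.20, interval 3.55 to 4.94), the transmembrane collagen of hemidesmosomes, and Col7a1, of anchoring fibrils, had 10 UMIs (0.286). In 735 muscle cells the 3 highest were those of the fibroblasts, with Col3a1 at 6.93, which was 2.96% of its fibroblast level, and the fibroblast markers stood at 3.31% of theirs. Without ZT18 replicate 3, which held 8648 of the 13376 collagen UMIs of muscle cells, Col3a1 was at 2.68 and the markers at 1.58%, a comparison chosen after seeing the data. As in immune cells, whether these shares are background or expression was not tested. A cluster of 49 cells with Pax7 and Myf5 among its leading genes had Col3a1 (8.49), Col4a1 (4.89) and Col15a1 (2.51), and in a cluster of 18 cells led by Prlr and Slc26a7, Col23a1 stood at 6.26 (interval 4.69 to 8.18) against 0.0414 in all fibroblasts. With so few cells, these levels were not compared over time.

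The genes that process collagen were followed by lists. Of the prolyl and lysyl hydroxylases, chaperones and export factors, 5 of 20 were called for a 24 h rhythm in fibroblasts (13.7% of all genes), P4ha3, Fkbp10, Fkbp14, Creb3l1 and Sec24d, with a median log2 amplitude of 0.116 for the list. The smallest adjusted p were those of Creb3l1, a transcription factor of secretory pathway genes (1.86-fold, peak at ZT0.15, adjusted p = 6.2e-04), Sec24d, a coat protein of vesicles that carry procollagen (1.30-fold, ZT3.2, 0.0085), and Fkbp14, a chaperone (1.54-fold, ZT3.2, 0.015). Of the procollagen proteinases and cross-linking enzymes, 4 of 12 were called, Tll1, Lox, Loxl2 and Loxl4 (list median 0.121). Loxl2 (1.67-fold, ZT3.8, 4.2e-04), Loxl4 (2.32-fold, ZT8.1, 0.0039) and Lox (1.97-fold, ZT6.5, 0.021) oxidise lysines for cross-links.

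Of the collagen-binding proteoglycans and matrix proteins, 5 of 20 were called, Bgn, Omd, Podn, Thbs2 and Fbn1 (list median 0.151). Fbn1, the fibrillin of microfibrils, differed by 2.19-fold with a peak at ZT3.0 (adjusted p = 1.8e-05), Thbs2 by 1.67-fold at ZT8.4 (0.0037) and the proteoglycan Bgn by 2.07-fold at ZT11.1 (0.025). Of the 8 collagen receptors tested, the tyrosine kinase Ddr1 alone was called (1.60-fold, ZT13.4, 0.0042), and Ddr2 (1.20-fold, adjusted p = 0.075) and Mrc2 (1.21-fold, 0.17) came next (list median 0.114).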

How the data were processed

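Dorsal dermis of 18 mice was measured by droplet scRNAseq, each mouse giving 1 library. Alignment to mm10 and counting of UMIs were done by the authors in Cell Ranger 3.1.0, and the deposited matrices, 1 per library, hold raw counts without normalization. Gene positions came from a GENCODE annotation of GRCm38.

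Cells with 850 to 7800 genes and under 13% mitochondrial UMIs were kept. Counts were log-normalized per 10000, and 2000 variable genes without collagen chains and clock genes gave 30 principal components, 15 neighbours and Leiden clusters at a resolution of 0.8 (2 as an alternative; scanpy 1.11.5, leidenalg 0.10.2). A marker list named a cluster only where at least 3 of its markers were detected. Clusters without such a name were called by their first 3 leading genes in these data. Among those described here, they were Sult1e1 Cxcl13 Dkk2, Dmkn Krtdap Sbsn, Gap43 Pi15 Edn1, Cilp Mgp Mfap4 and the immune Ccl5 Gzma Nkg7. Doublets were kept in the main analysis, and 219 cells with the highest doublet scores were removed as an alternative. The members, gene lists and markers were chosen with earlier results of these data known.

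UMIs were summed per library and cell group with at least 10 cells, and clusters with at least 15 such libraries were tested. The counts were tested with edgeR 4.0.16 (quasi-likelihood F-test of 24 h cosine and sine terms, or of the 6 times; TMM, filterByExpr, Benjamini-Hochberg over all genes, threshold 0.05; R 4.3.3). DESeq2 1.42.0, JTK_Cycle (written anew, 18 templates, ties in them not allowed for), no filter, scaling without collagen, leaving out libraries or clusters, and a replicate block were alternatives. The edgeR tests of the 24 h rhythm, the 6 times and the interaction, the DESeq2 rhythm test and JTK_Cycle were tried on simulated counts. These had the same dispersion for all genes. The replicate number is the day of collection in the titles, so it pairs libraries. Deviations of same-numbered libraries correlated at 0.044 on average in fibroblasts, against -0.021 for other numbers, and 9 of 18 libraries correlated best with their own number (immune cells 0.034, -0.016 and 12 of 18). Nothing says more about separate extraction or sequencing batches.

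Chains given in every library are the 5 highest in fibroblasts and those with an adjusted p under 0.05 in either test there, up to 12 more. The other chains are given by class, and of each list the 3 genes with the smallest adjusted p. Cell intervals are exact Poisson 95% intervals.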

Additional observations from a re-analysis of the deposited data

How the results depend on the processing

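The count of chains with a 24 h rhythm in fibroblasts was 7 in all libraries, of 26 tested. JTK_Cycle, at a p not adjusted over genes and with other periods searched too, gave 1 of 42. Its p values were too large, since ties in the curves searched were not allowed for. When all barcodes were summed, with other cell types and barcodes that failed the filter included, the count by edgeR was 4. Col4a4, Col6a6 and Col27a1 were then lost, with adjusted p values of 0.091, 0.065 and 0.077. Over all genes, 1698 were called in fibroblasts and 735 with all barcodes. The count of chains was 6 to 8 under DESeq2, no filter, scaling without collagen chains, the replicate block, removal of doublets and a resolution of 2. It was also 6 to 8 with removal of the interferon-response and Cxcl1 Il6 Ptgs2 clusters. The same held, chosen after seeing the data, for removal of the Pi16 Sema3e Cd248, Cilp Mgp Mfap4 or Cthrc1 Tnmd cluster. The share of all genes called was 13.7% in the main fit, 19.2% under DESeq2 and 6.35% without the filter, where 42 chains were tested. In the other settings of this group, that share was 12.2% to 13.9%. Without the Cilp Mgp Mfap4 cluster, Col8a1 was not tested, Col27a1 was lost and Col4a2 was gained (adjusted p = 0.041). Leaving out 1 library gave 6 to 8 chains, and 9.87% to 14.8% of all genes. Col5a3, Col12a1, Col8a1, Col6a6, Col27a1 and Col4a4 kept their calls in all 18 such fits. The count of 4 chains that differed among the 6 times was 8 by DESeq2 (1857 genes against 1073). It was 7 of 42 without the filter, where 5.67% of all genes were called, against 8.34%. It was 3 without the Cilp Mgp Mfap4 cluster (Col8a1 was lost, adjusted p = 0.087) and 4 to 6 without 1 library. In clusters, leaving out 1 library gave 2 to 4 chains in Pi16 Sema3e Cd248, 0 to 1 in Cxcl1 Il6 Ptgs2 and in Cthrc1 Tnmd, 3 to 5 in Sult1e1 Cxcl13 Dkk2, 1 to 4 in Gap43 Pi15 Edn1, 1 to 2 in Dmkn Krtdap Sbsn, 1 to 3 in Cilp Mgp Mfap4 and 3 to 4 in the interferon-response cluster. With the replicate block, Dmkn Krtdap Sbsn had 2 chains. Beyond the chains named beside their results, the block changed no call. In the interaction, 0 chains became 6 without the filter. The collagen share of the Cthrc1 Tnmd cluster was 22.9% relative to other genes. In immune cells, 0 chains were called in any of the 18 fits without 1 library, and DESeq2 called 31 genes against 8. The causes were not tested. Low counts limit the chains under 0.1 per 10000 most.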

Other observations

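Collagen levels of fibroblasts went with the day of collection, a comparison chosen after the values were seen and given without a test. Collagen chains took 9.36% ± 1.50 of the fibroblast UMIs in the 6 libraries of day 1, 6.89% ± 1.096 on day 2 and 6.26% ± 0.701 on day 3 (SD, n = 6 libraries per day, 1 at each zeitgeber time). The library of day 1 was the highest of its time at 5 of the 6 times. Col3a1, the chain of type III collagen, was at 294 ± 47.2 per 10000 on day 1, 215 ± 16.01 on day 2 and 201 ± 17.9 on day 3, and Col1a1 of type I at 292 ± 61.6, 208 ± 60.0 and 178 ± 31.2. The days overlapped in both chains. The type VI chain Col6a1 differed less, with 11.9 ± 0.996, 11.1 ± 0.518 and 11.2 ± 0.574.

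The share of the collagen-rich Cthrc1 Tnmd cluster was 8.69% ± 3.93 of the fibroblasts on day 1, 6.84% ± 5.52 on day 2 and 4.58% ± 2.19 on day 3. Without this cluster, collagen was still 7.91% ± 1.22, 5.68% ± 0.624 and 5.56% ± 0.373 of the fibroblast UMIs. The sum of AY036118, Gm42418 and Lars2 was 312 ± 137, 239 ± 81.3 and 255 ± 38.04 per 10000. The part of these in the difference between days was not tested, and the mouse, its dissection and the day cannot be told apart.

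A cluster of 35 cells named by hemoglobin genes had 5.02% collagen UMIs, with Col3a1 at 172 per 10000. Its 6 fibroblast markers summed to 259 per 10000, against 335 in the fibroblasts, so its barcodes held fibroblast RNA beside that of red blood cells.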
